A study of Mus musculus with 6 samples.

Results

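The genes described here are 34 genes of sterol and fatty acid synthesis, found by their symbols among the 22322 rows of the deposited gene table. Each symbol matched 1 row, and all 34 were among the 13161 genes with enough counts to be tested. They comprise 18 enzymes of cholesterol synthesis, 6 regulators or carriers of sterols, and 10 enzymes that make, elongate or desaturate fatty acids. RNA was sequenced from mouse neural stem progenitor cells of WT genotype, collected 24 h after treatment with PTN or, in the Control group, with PBS, with 3 libraries in each group. PTN is spelled out in no label and is taken here to be pleiotrophin, a secreted heparin-binding growth factor. The sources used here do not give the dose, the age and strain of the animals, or whether replicates are separate cultures. The p-values therefore measure the spread among these libraries only. Within a group, the counts of each pair of libraries differed beyond sampling noise. The summed CPM of 4 Y-linked genes ran from 49.3 to 102 in Control and from 7.95 to 74.2 in PTN. Whether the libraries of a group came from separate RNA samples was not tested.

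Cells build cholesterol from acetyl-CoA through mevalonate, the isoprenoid farnesyl diphosphate, squalene and lanosterol. Long-chain fatty acids are built from the same acetyl-CoA by carboxylation and repeated condensation, then lengthened by elongases and given double bonds by desaturases. Transcription of both branches is driven by the SREBP factors, which the escort protein SCAP carries out of the endoplasmic reticulum when sterols are low and which the INSIG proteins hold back when sterols are high. Neural cells make most of their own cholesterol, because lipoproteins of the blood hardly enter the brain, and astrocytes and oligodendrocytes are its main producers there.

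Total expected counts were between 19267764 and 26341745 per library. Levels are given below as CPM, counts per fixed library total with scaling between libraries, or as FPKM, the authors' values per kilobase, where genes are compared with each other. Differences are log2 fold changes of PTN against Control from edgeR's quasi-likelihood test, with adjusted p-values over all genes tested, and a gene is said to be called, to have risen or to have fallen at an adjusted p under 0.05. Of the 8 fixed neural stem and progenitor markers all were detected, their FPKM summing to between 3810 and 4810 in Control and between 4780 and 5880 in PTN libraries, and 1 of them, Vim, rose (edgeR adjusted p = 0.0482, n = 3 each). Of the 7 astrocyte markers 2 fell and 0 rose (summed FPKM 2870 to 3060 in Control and 818 to 1860 in PTN). Those were Gfap, with mean FPKM of 1382 in Control and 308 in PTN, and Aldoc, with 628 and 150.2. Together they made up most of that sum in Control but the smaller part of it in every PTN library. In PTN, Aldh1l1 had the highest mean FPKM of the 7, at 529. The astrocyte markers did not move together, and of the 7, 4 had negative and 3 positive log2 fold changes. Beside Gfap and Aldoc, Aldh1l1 and Slc1a2 were negative at -0.36 and -0.82, and neither was called. Aqp4, Gja1 and S100b had positive log2 fold changes of 0.24, 0.39 and 0.65 without being called. Aqp4 and Gja1 were highest in PTN 2, at 841 and 679 CPM. In PTN 1 and 3, Aqp4 was at 230.5 and 165 CPM and Gja1 at 246 and 252 CPM. S100b had mean FPKM of only 1.88 in Control and 2.96 in PTN. Of 9 oligodendrocyte lineage markers 2 fell, Pdgfra and Cspg4, and 0 rose (summed FPKM 536 to 625 and 481 to 645). Of the 6 neuronal and the 4 ependymal and choroid plexus markers 0 were called. The summed FPKM of the 5 microglial, 4 endothelial and 4 fibroblast markers stayed below 1.6 in every library, so these cell types were close to absent. Over all genes tested, 4.93% were called higher and 3.06% lower. In a mixed culture, fewer cells of a type and less RNA per cell cannot be told apart, and the part of the astrocyte and oligodendrocyte lineage genes in the results below was not tested.

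In cells given PTN, 4 of the 18 cholesterol synthesis enzymes fell and 0 rose, 1 of the 10 fatty acid enzymes fell and 0 rose, and 1 of the 6 regulators and carriers rose and 0 fell. The genes that fell were Tm7sf2, Mvd, Lss, Acat2 and Acss2, by 1.82-fold to 2.3-fold, and the one that rose was Insig2, by 1.97-fold. Among all genes tested, 3.06% were called lower and 4.93% higher. The median log2 fold change was -0.48 over the sterol enzymes, -0.38 over the fatty acid enzymes and 0.11 over the regulators and carriers, against 0.03 over all genes tested. In 10 of the 18 sterol enzymes and 4 of the 10 fatty acid enzymes all 3 PTN values lay below all 3 Control values, which was so in 17.1% of all genes tested. Insig2 alone among the 34 had all PTN values above all Control values, as 15.7% of all genes did.

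**Figure D1:**
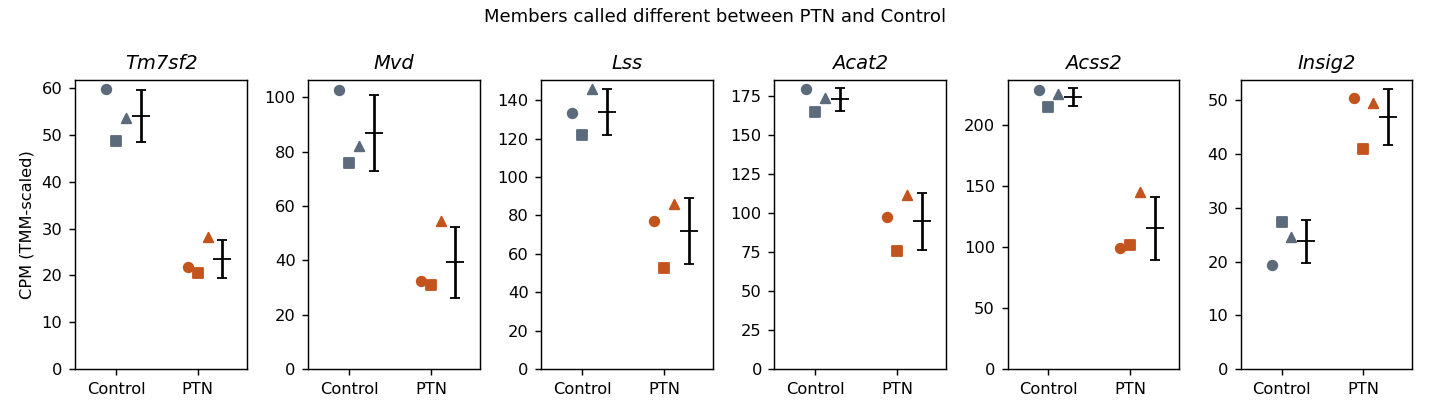
CPM (vertical axes, each starting at 0) of the 6 called members in the 3 Control and the 3 PTN libraries, with circles, squares and triangles for replicates 1, 2 and 3, and the mean and SD beside each group. Tm7sf2, Mvd, Lss, Acat2 and Acss2 were lower in every PTN library than in any Control library, and Insig2 was higher.

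The mevalonate steps, from acetyl-CoA to farnesyl diphosphate, fell in 2 of their 7 enzymes. Mvd (ENSMUSG00000006517), the decarboxylase that forms isopentenyl diphosphate, was at 103, 75.7 and 81.9 CPM in Control 1, 2 and 3 and at 32.3, 31.0 and 54.4 CPM in PTN 1, 2 and 3. Every PTN value was below every Control value, PTN 3 being the closest, and the log2 fold change was -1.15 ± 0.24 (SE, n = 3 each, edgeR adjusted p = 0.0247). This call was lost without Control 1, Control 3, PTN 1 or PTN 2 (adjusted p = 0.0799, 0.0649, 0.0871 and 0.0616).

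Acat2 (ENSMUSG00000023832), the thiolase that joins acetyl-CoA units at the entry of the pathway, was at 179.5, 164.8 and 173.8 CPM in the Control libraries. In PTN 1, 2 and 3 it was at 97.2, 75.3 and 111.6 CPM, again with no overlap (log2 fold change -0.87 ± 0.17 SE, n = 3 each, edgeR adjusted p = 0.0192). Without Control 1, Control 3 or PTN 1 its adjusted p was 0.0584, 0.0721 and 0.0591. Part of its expected counts was fractional, meaning that reads were shared with other genes, as were those of Fdps, Fdft1, Tm7sf2, Scd1 and Scd2.

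Mevalonate kinase (Mvk), phosphomevalonate kinase (Pmvk) and farnesyl diphosphate synthase (Fdps) were lower in all PTN libraries without passing the main test. Each passed DESeq2's Wald test (adjusted p = 0.00898, 0.026 and 0.0317) and edgeR's test without PTN 3. In those settings 4.46% and 6.79% of all genes were called lower. Mvk also passed edgeR's test with upper-quartile scaling and with no filter (adjusted p = 0.0467 and 0.045). This makes 5 sterol enzymes lower, beside 3.51% and 2.6% of all genes. Mvk was at 90.2, 68.6 and 70.6 CPM in Control and 43.4, 33.7 and 56.5 CPM in PTN (log2 fold change -0.78 ± 0.21 SE, n = 3 each, edgeR adjusted p = 0.0569). Fdps ranged most within PTN, at 119, 73.0 and 167 CPM against 245, 179 and 206 CPM in Control (edgeR adjusted p = 0.11, n = 3 each). Pmvk had a log2 fold change of -0.58 ± 0.17 (SE, n = 3 each, edgeR adjusted p = 0.0685).

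Hmgcs1, the synthase that makes HMG-CoA, and Idi1, the isopentenyl diphosphate isomerase, overlapped widely between groups. Hmgcs1 had the highest level of the sterol enzymes per length, with mean FPKM of 254.8 in Control and 248 in PTN, and its log2 fold change was -0.05 ± 0.24 (SE, n = 3 each). Idi1 ran from 133.5 CPM in Control 1 to 250.5 CPM in Control 2 and from 153 CPM in PTN 2 to 297 CPM in PTN 1. Its log2 fold change of 0.03 ± 0.30 was small beside its SE (n = 3 each), and upper-quartile scaling, which lowers all genes alike, made it negative.

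Between farnesyl diphosphate and lanosterol, 1 of the 3 enzymes fell. Lss (ENSMUSG00000033105), the cyclase that folds oxidosqualene into lanosterol, was at 133.5, 122.1 and 146.0 CPM in Control and at 77.2, 52.7 and 86.0 CPM in PTN. The groups did not overlap and PTN 2 was the lowest (log2 fold change -0.90 ± 0.20 SE, n = 3 each, edgeR adjusted p = 0.029). Without Control 1, Control 2, Control 3 or PTN 1 the adjusted p was 0.0754, 0.0513, 0.101 and 0.0722.

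Fdft1, squalene synthase, was at 264, 242 and 249 CPM in Control and 169, 169 and 202 CPM in PTN, with no overlap (log2 fold change -0.48 ± 0.14 SE, n = 3 each, edgeR adjusted p = 0.071). Sqle, the epoxidase that follows and a rate-limiting step of the sterol branch, was at 197, 196 and 221 CPM in Control and 218, 158 and 253 CPM in PTN. Its groups overlapped fully (log2 fold change 0.04 ± 0.19 SE, n = 3 each), with a negative sign under upper-quartile scaling. The consecutive steps Fdft1, Sqle and Lss thus had log2 fold changes of -0.48, 0.04 and -0.90.

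Of the 8 enzymes that turn lanosterol into cholesterol, 1 fell. Tm7sf2 (ENSMUSG00000024799), a sterol C14 reductase, had the smallest adjusted p of all 34 genes. It was at 59.8, 48.7 and 53.6 CPM in Control and at 21.9, 20.4 and 28.2 CPM in PTN. The lowest Control library was above the highest PTN library by a wide margin (log2 fold change -1.20 ± 0.17 SE, n = 3 each, edgeR adjusted p = 0.0064). Alone among the 6 called members it stayed called whichever library was left out, with adjusted p between 0.00274 and 0.0305.

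Ebp, the sterol isomerase, and Nsdhl, a dehydrogenase of the demethylation complex, were lower in all PTN libraries but not called (log2 fold changes -0.56 ± 0.18 and -0.45 ± 0.17 SE, n = 3 each, edgeR adjusted p = 0.0877 and 0.131). Dhcr7, the reductase of the last step in one arm of the pathway, was at 247, 180 and 203 CPM in Control and 134, 116 and 203 CPM in PTN, where PTN 3 reached the Control range. Cyp51, the lanosterol demethylase, which acts before Tm7sf2, and Msmo1, the methylsterol oxidase, which acts after it, were not called. Nor was Sc5d, a desaturase. Their log2 fold changes were -0.08 ± 0.20, -0.17 ± 0.21 and 0.01 ± 0.18 (SE, n = 3 each). That of Sc5d turned negative with upper-quartile scaling. Hsd17b7, the ketoreductase of the demethylation complex, had the largest positive value of the sterol enzymes, 0.48 ± 0.24 (SE, n = 3 each, edgeR adjusted p = 0.233). It was at 28.8, 32.0 and 36.8 CPM in Control and at 51.1, 29.2 and 55.5 CPM in PTN, and without PTN 2 it was called higher (adjusted p = 0.0419).

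**Figure D2:**
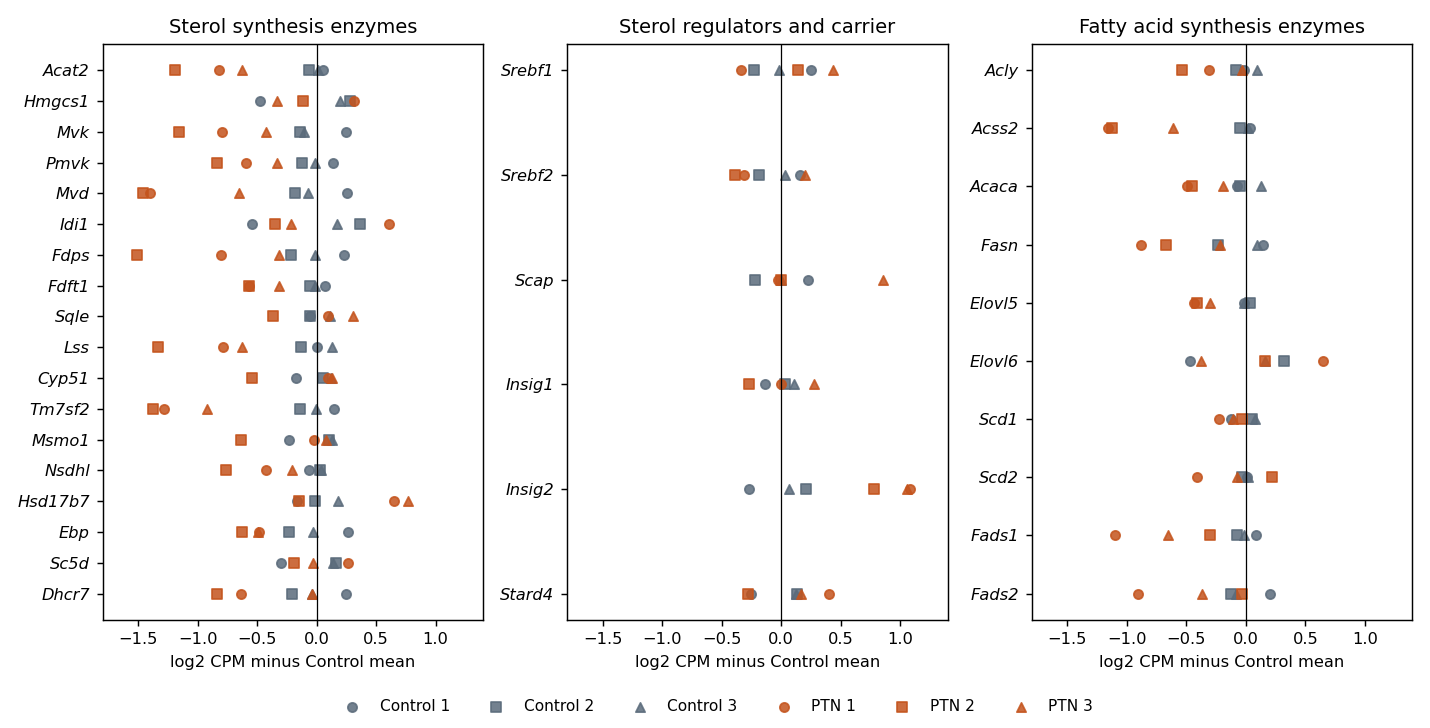
Level of each member in each library as log2 CPM minus the mean of the 3 Control libraries (horizontal axis), for sterol enzymes in pathway order, regulators and carrier, and fatty acid enzymes; grey is Control, orange is PTN, and the symbol gives the replicate. PTN 2 is the leftmost point for 14 of the 18 sterol enzymes and PTN 1 for 8 of the 10 fatty acid enzymes.

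The PTN libraries differed among themselves, and not in the same way for the 2 branches. PTN 2 was the lowest of all 6 libraries in 14 of the 18 sterol enzymes, and Control 1 in the other 4. Among the fatty acid enzymes PTN 1 was the lowest in 8 of 10. Summed over the 18 sterol enzymes, levels were 3007, 3398 and 3472 CPM in Control and 3077, 2215 and 2860 CPM in PTN, which overlapped; Hmgcs1, with the highest CPM of these enzymes, was lowest in Control 1. The median of each library's log2 deviation from the Control mean, which weights the enzymes equally, was -0.53, -0.70 and -0.32 in PTN 1, 2 and 3 and between -0.06 and 0.03 in the Control libraries. The mitochondrial share of counts was 8.12%, 8.1% and 3.97% in PTN 1, 2 and 3 and between 4.47% and 7.47% in Control, and the Y-linked transcripts were lowest in PTN 3. The part of these differences in the results was not tested. The sterol enzymes called lower, 4 with all libraries, numbered 1 (Tm7sf2) without PTN 1, without Control 1 or without Control 3. They numbered 3 without PTN 2 or without Control 2, and 10 without PTN 3. The share of all genes called lower, 3.06% with all libraries, moved too. It was 1.2%, 0.99% and 0.975% without PTN 1, Control 1 and Control 3. Without PTN 2 and Control 2 it was 3.35% and 1.29%, and without PTN 3 it was 6.79%.

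To set enzymes of 1 pathway that fell beside others that were not called, the sequences before their RefSeq start sites (GRCm38.p6) are shown for 3 enzymes that fell, Tm7sf2, Mvd and Lss, and for Hmgcs1 and Insig1, which were not called. Each line gives the 250 bases upstream of the start, 5′ to 3′ on the gene's strand. Capitals mark exact matches, on either strand, to TCACNCCAC (a form of the sterol regulatory element bound by SREBP), to CCAAT (bound by the SREBP partner NF-Y) and to GGGCGG (bound by Sp1).
Tm7sf2 (chr19:6067851-6068100, minus strand): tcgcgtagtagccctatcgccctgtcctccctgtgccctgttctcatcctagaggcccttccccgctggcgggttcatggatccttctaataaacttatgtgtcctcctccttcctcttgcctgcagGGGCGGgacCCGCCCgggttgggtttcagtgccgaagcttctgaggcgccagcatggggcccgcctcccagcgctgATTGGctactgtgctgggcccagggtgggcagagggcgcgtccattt
Mvd (chr8:122443423-122443672, minus strand): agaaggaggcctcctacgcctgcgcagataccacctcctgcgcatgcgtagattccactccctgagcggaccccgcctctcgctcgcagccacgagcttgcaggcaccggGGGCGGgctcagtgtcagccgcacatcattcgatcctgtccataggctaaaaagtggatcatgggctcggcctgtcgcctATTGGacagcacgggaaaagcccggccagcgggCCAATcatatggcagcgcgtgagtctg
Lss (chr10:76531355-76531604, plus strand): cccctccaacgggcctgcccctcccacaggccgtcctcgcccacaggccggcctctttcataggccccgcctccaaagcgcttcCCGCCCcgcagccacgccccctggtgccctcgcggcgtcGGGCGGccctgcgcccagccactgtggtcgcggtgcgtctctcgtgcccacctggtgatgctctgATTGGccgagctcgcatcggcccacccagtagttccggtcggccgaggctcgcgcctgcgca
Hmgcs1 (chr13:119690101-119690350, plus strand): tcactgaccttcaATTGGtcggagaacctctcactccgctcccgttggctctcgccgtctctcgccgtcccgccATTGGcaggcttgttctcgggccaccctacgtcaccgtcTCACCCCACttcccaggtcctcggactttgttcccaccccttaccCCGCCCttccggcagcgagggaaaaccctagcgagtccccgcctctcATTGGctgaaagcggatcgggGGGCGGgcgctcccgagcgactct
Insig1 (chr5:28071162-28071411, plus strand): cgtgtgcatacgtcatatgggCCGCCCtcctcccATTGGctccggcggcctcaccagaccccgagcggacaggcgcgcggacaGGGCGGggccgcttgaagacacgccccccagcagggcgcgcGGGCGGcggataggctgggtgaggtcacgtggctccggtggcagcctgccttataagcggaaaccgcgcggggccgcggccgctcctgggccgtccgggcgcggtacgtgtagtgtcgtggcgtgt

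Windows were found for 27 of the 34 genes, 35 windows in all since some genes have several starts. CCAAT stood in 62.9% of these 35 windows and in 33.8% of all 32851 windows of the same length. GGGCGG stood in 71.4% of them and in 32.7% of all. The 32851 windows were not limited to the genes tested here, so the members were not set against expressed genes alone. Matches of different motifs overlapped in 0 of the 35 windows. By gene, CCAAT was found in 14 of 15 sterol enzymes, 4 of 5 regulators and carriers and 3 of 7 fatty acid enzymes. The 9-letter element was in 1 window, that of Hmgcs1, from 137 to 129 bases before the start, and in 1.05% of all windows. Among the genes that fell, CCAAT matches were present in Tm7sf2, Mvd, Lss and Acss2 but absent from the window of Acat2. They were also present in genes that were not called (Hmgcs1, Idi1 and Insig1). The presence of CCAAT thus did not separate genes that fell from genes that were not called. These matches describe letters only, and binding was not measured.

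Of the 6 regulators and carriers Insig2 was the one called. Insig2 (ENSMUSG00000003721), one of the 2 INSIG proteins that retain SCAP in the endoplasmic reticulum, was at 19.4, 27.3 and 24.7 CPM in Control and at 50.5, 40.9 and 49.5 CPM in PTN. All PTN values lay well above all Control values (log2 fold change 0.98 ± 0.18 SE, n = 3 each, edgeR adjusted p = 0.0136). Without Control 3 its adjusted p was 0.0696, and it was called without any other single library. Insig1, its paralog and itself a target of SREBP, was at 244, 275 and 289 CPM in Control and at 269, 222 and 326 CPM in PTN. Those ranges overlapped, with a log2 fold change of 0.02 ± 0.17 (SE, n = 3 each) that turned negative with upper-quartile scaling. Per length, Insig1 was the more abundant of the pair, with a mean FPKM of 100.9 in PTN against 24.3 for Insig2.

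Srebf1 and Srebf2, which encode the SREBP factors, had log2 fold changes of 0.10 ± 0.22 and -0.15 ± 0.19, and Scap one of 0.33 ± 0.25 (SE, n = 3 each, edgeR adjusted p = 0.778, 0.62 and 0.414). Scap stood at 417 CPM in PTN 3 but at 226 and 230 CPM in PTN 1 and 2, inside the Control range of 197 to 269.5 CPM. Stard4, a carrier that moves cholesterol between membranes, averaged 64.9 ± 9.44 CPM in Control against 70.2 ± 16.1 CPM in PTN (SD, n = 3 each), and its log2 fold change of 0.11 ± 0.20 SE, like that of Srebf1, turned negative when a length trend was removed.

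In the fatty acid branch, the gene that fell was Acss2 (ENSMUSG00000027605), the synthetase that makes acetyl-CoA from acetate. It was at 229, 215 and 225 CPM in Control and at 99.3, 101.8 and 145 CPM in PTN. The Control libraries lay close together and PTN 3 was the nearest to them (log2 fold change -0.95 ± 0.18 SE, n = 3 each, edgeR adjusted p = 0.0159). Without Control 1, Control 3 or PTN 1 the adjusted p was 0.0523, 0.0603 and 0.0569. Acly, which makes acetyl-CoA from citrate, averaged 492 ± 31.0 CPM in Control against 405 ± 71.0 CPM in PTN (SD, n = 3 each, edgeR adjusted p = 0.292).

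Acaca, the carboxylase that commits acetyl-CoA to fatty acids, and Fasn, the synthase, were not called (log2 fold changes -0.38 ± 0.15 and -0.57 ± 0.21 SE, n = 3 each, edgeR adjusted p = 0.15 and 0.126). Acaca was below Control in all PTN libraries, while Fasn overlapped in PTN 3 (784, 906 and 1242 CPM in PTN against 1591, 1225 and 1538 CPM in Control). The elongase Elovl5, which acts on polyunsaturated chains, was at 507, 526 and 507 CPM in Control and 380, 385 and 416 CPM in PTN with no overlap (edgeR adjusted p = 0.112, n = 3 each). Elovl6, which extends saturated chains, overlapped, and its log2 fold change of 0.17 ± 0.28 (SE, n = 3 each) turned negative when the length trend was removed.

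Among the desaturases, the delta-5 enzyme gene Fads1 was lowest in relation to Control, at 954, 855 and 890 CPM in Control and 420, 728 and 571 CPM in PTN. The groups did not overlap, but the difference did not pass the test (log2 fold change -0.65 ± 0.21 SE, n = 3 each, edgeR adjusted p = 0.0889), and without PTN 2 it did (adjusted p = 0.0304). The delta-6 enzyme gene Fads2 was at 616, 1133 and 900 CPM in PTN 1, 2 and 3, where PTN 2 lay within the Control range of 1065 to 1335 CPM. In both Fads genes PTN 1 was the lowest and PTN 2 the highest of the PTN libraries.

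Scd2, the stearoyl-CoA desaturase typical of brain, had by far the highest level of all 34 genes, with mean FPKM of 1424 in Control and 1379 in PTN. Its Control values were close, at 7727, 7520 and 7787 CPM, while PTN 1, 2 and 3 were at 5784, 8914 and 7292 CPM, on both sides of them. Scd1 had mean FPKM of 307 and 287, with a log2 fold change of -0.12 ± 0.15 (SE, n = 3 each). The summed level of the fatty acid enzymes, of which Scd2 was the largest part, was 14350 ± 430.4 CPM in Control against 12410 ± 2110 CPM in PTN (SD, n = 3 each), and the groups overlapped.

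**Figure D3:**
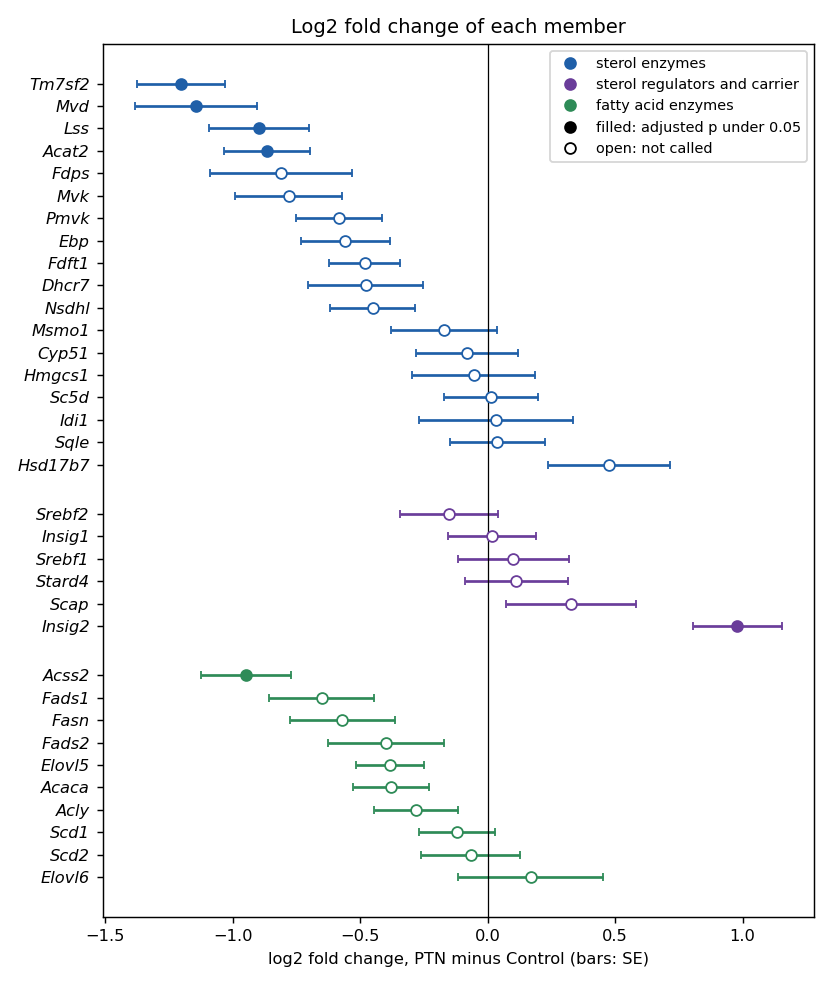
Log2 fold change of PTN against Control (horizontal axis) for each member, ordered by size within sterol enzymes, regulators and carrier, and fatty acid enzymes; bars are the SE of the fit over 3 and 3 libraries, and filled points are called. Among the sterol enzymes values run from -1.20 for Tm7sf2 to 0.48 for Hsd17b7, and 9 of the 10 fatty acid enzymes are negative.

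Set beside each other, the branches had similar medians, -0.48 for sterol enzymes and -0.38 for fatty acid enzymes. Negative log2 fold changes were found in 14 of 18 sterol enzymes and in 9 of 10 fatty acid enzymes, against 47.5% of all genes tested. In the further lists described below, the share was 75% for fatty acid oxidation and 70% for sterol uptake, transport and efflux. It was 60% for other sterol steps and SREBP processing, and 60% for other fatty acid synthesis, elongation and activation. The sterol enzymes ranged from -1.20 to 0.48 and the fatty acid enzymes from -0.95 to 0.17. The lists hold 18 and 10 genes, and a longer list can reach a wider range without a difference in spread. Within the sterol branch the mevalonate steps had a median of -0.78 and the steps after lanosterol one of -0.31. No test between these lists was made.

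Fold changes in these libraries increased with transcript length, both over all genes and over the members. The median log2 fold change of all genes tested was -0.16 in the shortest of 3 equal length classes (up to 2127 bases), 0.03 in the middle class and 0.23 in the longest (above 3612 bases). The 9, 12 and 13 members in these classes had medians of -0.58, -0.39 and -0.08, each below that of all genes in its class. Spearman's rho of fold change with length was 0.393 over the 34 members and 0.317 over the 13161 genes, given as a description because genes share libraries. When the length trend was removed from every library, all 6 called members remained called (edgeR adjusted p = 0.00701 for Tm7sf2, 0.0131 for Insig2, 0.0172 for Acss2, 0.0213 for Acat2 and 0.0261 for Mvd and Lss). The medians were then -0.42 for sterol enzymes and -0.44 for fatty acid enzymes. Lss, at 4667 bases a long transcript, had -1.07 after the correction, and Mvd, at 1756 bases, also -1.07.

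**Figure D4:**
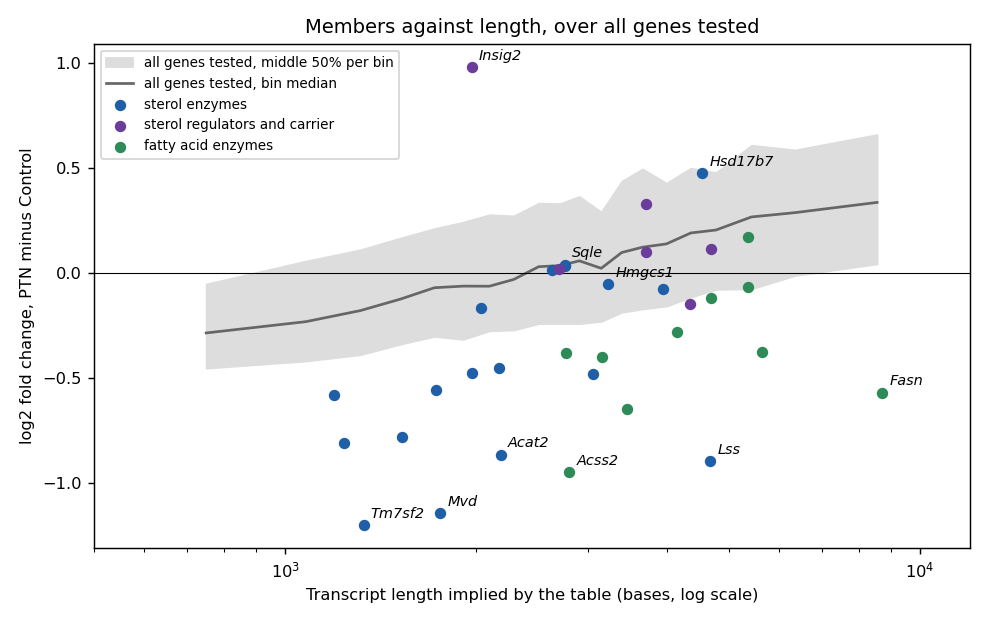
Log2 fold change of PTN against Control (vertical axis) against the transcript length implied by the deposited table (horizontal axis, log scale), with the members as points over the median and middle 50% of all genes tested in 20 length bins. The grey median rises with length, Among the members named in the plot, Tm7sf2, Mvd, Acat2, Acss2, Lss and Fasn lie below the grey band and Insig2 above it, and several members without a name also lie below.

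The table also holds a readout of transcript form. Dividing a gene's count by its FPKM and the library total gives the transcript length implied by the authors' quantification in that library, which can shift with the estimated mix of isoforms. It varied between libraries in 18 of the 34 members, and in 4335 of the 7772 genes with an FPKM of at least 5 in every library. With limma on log2 length, 0.0461% of these 4335 genes were called and 0 of the 18 members. The clearest member was Sc5d, with implied lengths of 2451, 2518 and 2501 bases in Control and 2801, 2825 and 2720 bases in PTN, 11.7% longer and with no overlap, though not called (log2 difference 0.16 ± 0.022 SE, n = 3 each, limma adjusted p = 0.191). Its mean CPM was 97.7 in Control against 98.4 in PTN, while its FPKM, which takes the length into account, was 39.2 and 35.3. The implied length of Insig2 was 1629, 2342 and 2100 bases in Control and 1963, 2008 and 1829 bases in PTN. Its FPKM in Control was therefore nearly constant, at 12, 11.59 and 11.80, although its CPM was not, and in PTN it was 25.52, 20.45 and 27.01, so the groups were apart on both scales.

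Genes around the 2 branches were taken from fixed lists of other pathway members. Of 20 tested genes of sterol uptake, transport and efflux, 3 rose and 2 fell, with a median of -0.11, beside 4.93% of all genes called higher and 3.06% lower. Abcg1, which exports cholesterol to HDL, was at 1.69, 1.64 and 1.68 CPM in Control and 6.01, 8.20 and 6.08 CPM in PTN. It was 4.04-fold higher on the fitted scale (log2 fold change 2.01 ± 0.24 SE, n = 3 each, edgeR adjusted p = 0.00339). Its level was low, with 40, 43 and 36 counts in Control. Its implied length was 5862, 5830 and 1643 bases in Control and 5629, 3257 and 3703 bases in PTN. On the FPKM scale Control 3, at 1.03, nearly reached PTN 1, at 1.06. Abca1, the exporter that loads apolipoproteins, was at 271, 350.2 and 338 CPM in Control and 594, 1024 and 554 CPM in PTN, 2.26-fold higher (edgeR adjusted p = 0.0255, n = 3 each). Both exporters were higher in every PTN library than in any Control library. The call of Abca1 was lost when the length trend was removed (adjusted p = 0.0696) and without Control 1, Control 2 or Control 3 (0.118, 0.0763 and 0.1).

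Vldlr, a lipoprotein and reelin receptor, was 2.27-fold higher, averaging 35.5 ± 6.43 CPM in Control against 80.3 ± 15.4 CPM in PTN (SD, n = 3 each, edgeR adjusted p = 0.00992). Leaving out Control 3 gave an adjusted p of 0.0506. Gramd1b, which moves plasma membrane cholesterol to the endoplasmic reticulum, was 1.68-fold lower (edgeR adjusted p = 0.0353), and leaving out Control 1, Control 2, Control 3 or PTN 1 gave 0.101, 0.106, 0.115 and 0.0932. Soat1, the enzyme that esterifies cholesterol for storage, was 1.5-fold lower (160.9 ± 4.35 CPM in Control against 107.6 ± 14.4 CPM in PTN, SD, n = 3 each, edgeR adjusted p = 0.0462), and is named as the only further called gene of this list, a choice made after its values were seen. Of the refits that leave out 1 library only that without PTN 2 called it, the others giving an adjusted p of 0.0552 to 0.144. Of 15 tested genes of other sterol steps and SREBP processing 1 fell and 0 rose, against the 3.06% of all genes called lower. That gene was Erg28, a scaffold of the demethylation complex, 1.48-fold lower (edgeR adjusted p = 0.0436). With the length trend removed the adjusted p was 0.0934, and of the 6 refits that leave out 1 library only that without PTN 3 called it, the others giving 0.0917 to 0.117.

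Of 25 tested genes of other fatty acid synthesis, elongation and activation 2 fell and 0 rose, with a median of -0.06, against the same 3.06% of all genes called lower. Thrsp, a regulator of lipogenesis first known as a thyroid hormone responsive gene, was at 176, 148 and 133 CPM in Control and 36.6, 72.4 and 51.9 CPM in PTN, 2.84-fold lower (log2 fold change -1.51 ± 0.25 SE, n = 3 each, edgeR adjusted p = 0.00922). It was called whichever library was left out. Acsl6, which activates long fatty acids, was 2.4-fold lower (edgeR adjusted p = 0.0146), with 0.0509 and 0.0549 when Control 3 or PTN 1 was left out. Of 20 tested genes of fatty acid oxidation, with a median of -0.14, 1 rose and 0 fell. That share was close to the 4.93% of all genes called higher. The gene was Ppargc1a, a coactivator of mitochondrial genes, 1.6-fold higher (36.0 ± 5.15 CPM in Control against 57.7 ± 5.82 CPM in PTN, SD, n = 3 each, edgeR adjusted p = 0.0368). Its adjusted p was 0.0531 with the length trend removed and between 0.063 and 0.144 without any 1 library other than PTN 3.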

How the data were processed

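The authors deposited 1 table that gives, for every gene and each of the 6 libraries, an expected count and an FPKM. Per the file headers, the columns carry the group's first letter and the replicate number, which matched the labels. Expected counts, as deposited, are estimated reads per gene and not scaled between libraries. FPKM values, as deposited, are scaled by transcript length and library total. The sources used here do not give the aligner, counting program or genome build. Per the labels' protocols, RNA came from a column kit and libraries from a SMARTER mRNA kit.

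Counts were rounded, and edgeR's filterByExpr kept 13161 of 22322 genes (59%). Libraries were scaled by TMM, and PTN was compared with Control by edgeR's quasi-likelihood test (glmQLFTest, edgeR 4.0.16, R 4.3.3) across all genes, with Benjamini-Hochberg adjustment and a threshold of 0.05. The SE is the size of the log2 fold change divided by the square root of F. The biological coefficient of variation was 0.208. 1 CPM stands for 19.3 to 26.3 counts. The procedure was tested on simulated data. Those had less spread between libraries than measured here and no length trend, so they do not measure the error of these calls. No pair of libraries within a group agreed within sampling noise (smallest chi-square per degree of freedom 11.9).

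The members and lists were chosen with earlier results of these data known. The rule for naming genes took every member, with values in every library for called members and for the member of smallest p in a role without one, and from each further list up to 4 called genes by smallest p. The alternatives tried were upper-quartile scaling, size factors and the Wald test of DESeq2 (1.42.0), limma-voom (limma 3.58.1), leaving low counts unfiltered, a minimum of 1 CPM in 3 libraries, removal of a length trend (lowess, span 0.3), a replicate block, a threshold of 0.1 and leaving out each library. DESeq2's Wald test used that program's own filter (17163 genes with a p-value), so it was also run on the 13161 genes kept, a choice made after seeing the data. The limma test of implied length (genes with FPKM of at least 5 in all libraries and an SD of log2 length above 0.01) and the promoter motifs were chosen after seeing the data.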

Additional observations from a re-analysis of the deposited data

How the results depend on the processing

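The 6 called members were also called with DESeq2 size factors, upper-quartile scaling, no filter, 1 CPM in 3 libraries, DESeq2's Wald test, limma-voom, the length trend removed and the replicate block. Against 1052 genes called in either direction, 4 sterol enzymes lower and 1 fatty acid enzyme lower, DESeq2's Wald test over 17163 genes gave 1852, 8 and 3, on the 13161 genes tested in edgeR it gave 1908, 9 and 3, and an edgeR threshold of 0.1 gave 1913, 8 and 2. The labels share replicate numbers between groups, but same-numbered libraries deviated together with r of -0.506, 0.362 and -0.00494, so the numbers were not taken as pairs. With the replicate block 726 genes were called in all, and Erg28, Gramd1b, Soat1 and Ppargc1a were not called (adjusted p = 0.14, 0.0647, 0.118 and 0.0959). Leaving out 1 library gave 331 to 2177 calls over all genes, 1 to 10 sterol enzymes lower and 0 to 1 higher, 0 to 1 regulators higher, 0 to 2 fatty acid enzymes lower, and medians of -0.59 to -0.38 for sterol and -0.43 to -0.29 for fatty acid enzymes. A refit on 5 libraries has fewer residual degrees of freedom.

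Members near 0 changed sign, some because upper-quartile scaling moved the median of all genes from 0.03 to -0.015. With upper-quartile scaling Idi1, Sqle, Sc5d and Insig1 were at -0.014, -0.0085, -0.034 and -0.029, and with the length trend removed Srebf1, Stard4 and Elovl6 were at -0.011, -0.058 and -0.049. Leaving out 1 library gave ranges of -0.33 to 0.21 for Idi1, -0.12 to 0.21 for Sqle, -0.15 to 0.11 for Sc5d, -0.13 to 0.14 for Insig1, -0.050 to 0.28 for Stard4, -0.12 to 0.39 for Elovl6, -0.28 to 0.080 for Hmgcs1, -0.094 to 0.28 for Srebf1, -0.23 to 0.078 for Scd2, -0.20 to 0.11 for Cyp51, -0.31 to 0.020 for Msmo1 and -0.026 to 0.48 for Scap. None of these was called in any of these refits, and the cause of the other sign changes was not tested.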
